A study of Mus musculus with 9 samples.

Results

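Collagen genes were followed across single cells of 9 mouse kidneys. The members were all gene symbols in the deposited tables made of Col, a number, the letter a and a number, from Col1a1 to Col28a1. There were 44 of them among 32427 symbols, and 39 were listed in all 9 libraries. By the structure of their products, 11 are fibrillar, 6 are chains of collagen IV, 6 of collagen VI, 9 are fibril-associated, 4 transmembrane and 2 multiplexins, with the rest in smaller classes.

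The study asked how ergothioneine (EGT), a sulphur-containing antioxidant taken up from food, acts when acute injury of the kidney (AKI) passes into chronic disease of the organ (CKD). All mice were male C57BL/6, entered at 6 weeks of age, and were sampled after 8 weeks, with part of a kidney from each used for sequencing. Control mice (n = 3) received intraperitoneal saline. AKI-CKD mice (n = 3) received intraperitoneal cisplatin, a platinum drug that injures the proximal tubule, at 8 mg/kg weekly for 4 weeks. AKI-CKD + EGT mice (n = 3) received the same cisplatin and drank 0.5 mg/mL EGT from 3 days before the first dose, and no mice received EGT without cisplatin.

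Of 216680 cell barcodes, 196925 passed the filters, with 64225484 to 97584966 unique molecular identifiers (UMIs, one per captured RNA molecule) per mouse. The study states the same thresholds and fewer kept cells, so the cell set used here was larger than the study's. Levels are given as CPM, the UMIs of a gene relative to all UMIs of the same cells and mouse. Because each UMI tags a 3′ end, levels were not divided by gene length. Cells were grouped without any collagen gene and named from marker genes, so that each name below stands for cells like that type. The populations were stromal cells (614 cells, 36 to 122 per mouse), endothelial cells (3623), podocytes (697, 16 to 254 per mouse) and tubular cells (185648). Tubular cells were made up of proximal tubule (PT, 156423), loop of Henle (LOH, 9348), distal convoluted tubule (DCT, 13442), collecting duct principal (CD-PC, 2410), collecting duct intercalated (CD-IC, 3030) and thin limb cells (995). The DCT class was not uniform. It included a cluster of 5458 cells led by Klk1, Clu, S100g and Calb1, without Slc12a3 or Pvalb among its leading genes. All 12 mural, 12 fibroblast, 10 endothelial and 10 podocyte markers were at least 2-fold above PT cells in the population they mark. The stromal cells formed 1 cluster led by mural markers (summed level 14390 CPM, against 519 CPM for fibroblast markers), so fibroblasts were not resolved as a population of their own. RNA of PT markers was found in every population, at 19260 to 78710 CPM per mouse in stromal cells and 40830 to 123200 CPM in podocytes. The cell names were running labels, of which 62337 of 98290 occurred in more than 1 library, so a shared name does not mark a shared cell.

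Collagens are secreted or membrane proteins whose chains wind around each other into a stiff helix. The fibrillar collagens I, III and V form the fibres of interstitial scar, collagen IV forms the sheet-like network of basement membranes, and collagens XV and XVIII sit at the face of basement membranes. In the kidney the chains encoded by Col4a3, Col4a4 and Col4a5 build the mature glomerular basement membrane and parts of the tubular one, and their loss causes Alport syndrome.

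The collagen IV genes lie in head-to-head pairs that share the DNA between their starts. In the RefSeq windows of build GRCm38.p6, with starts from the GENCODE annotation of that build, the first exons of Col4a1 (minus strand) and Col4a2 (plus strand) overlapped by 22 bases. The starts of Col4a4 (minus) and Col4a3 (plus) were 126 bases apart, and those of Col4a6 (minus) and Col4a5 (plus) 1308 bases apart on chromosome X. The overlap, the whole interval between Col4a4 and Col4a3, and the 100 bases before the start of Col18a1 are printed 5′ to 3′. Col4a3, Col4a4 and Col18a1 each passed a condition comparison below. Col4a1 and Col4a2 did not, and Col27a1, which did, is not printed.
Col4a1 and Col4a2, chr8:11312801-11312830, plus strand, capitals mark the bases in both first exons: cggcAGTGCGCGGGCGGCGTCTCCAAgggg
Col4a4 and Col4a3, chr1:82586850-82586975, plus strand: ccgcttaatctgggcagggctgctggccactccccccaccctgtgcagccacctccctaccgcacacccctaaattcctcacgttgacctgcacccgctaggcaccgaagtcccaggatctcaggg
Col18a1, chr10:77166549-77166648, minus strand, capitals mark GC boxes: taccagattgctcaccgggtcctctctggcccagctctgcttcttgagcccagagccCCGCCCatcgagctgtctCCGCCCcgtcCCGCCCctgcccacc
The GC box, searched as GGGCGG on both strands, occurred 3 times before Col18a1, once in the collagen pair on chromosome 8 and not in the interval of Col4a4 and Col4a3. It was present in 35.7% of 32851 promoter windows (250 bases before to 50 after a start) and in 60.5% of the 38 windows of collagen genes. The CCAAT box (CCAAT, either strand) was in 37.4% of all windows and 34.2% of collagen windows, and the TATA box (TATAAA, either strand) in 13.6% and 13.2%. A window was found for 35 of the 44 members. The counts were made on another build, GRCm39, so these coordinates describe the reference alone, and UMIs from 3′ ends cannot tell the start sites of a gene apart.

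Collagen RNA was a small share of the kidney's RNA. The 44 genes together gave 339 to 605 CPM per mouse over all cells, of which collagen IV gave 258 to 461 CPM. Depth was uneven among the members: 14 had under 100 UMIs in all kept cells, 16 had 100 to 1000, 7 had 1000 to 10000 and 7 had more. Those 7 were Col4a4 (98026 UMIs), Col4a3 (65313), Col4a1 (39243), Col18a1 (24821), Col27a1 (21946), Col4a2 (19635) and Col8a1 (10673). When UMIs were pooled over mice, 18 of the 30 members with at least 100 UMIs had their highest level among the named populations in stromal cells, 5 in CD-PC cells and the other 7 elsewhere. The 528 cells of no named population are left out of this and all later ranks, and 12 of the 30 were higher in them, 7 of the 18 stromal members and 2 of the 5 CD-PC members included. The stromal rank of Col7a1, Col5a3 and Col25a1 rests on 3, 5 and 5 UMIs. On these pooled UMIs CD-PC cells were the highest named population for Col4a4, Col18a1, Col26a1, Col27a1 and Col20a1, although Col27a1 and Col20a1 averaged more in the unnamed cells (61.9 against 57.6 CPM and 8.03 against 2.45 CPM), while by the mean over mice Col18a1 was about as high in CD-IC cells (281 against 279.6 CPM).

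**Figure D1:**
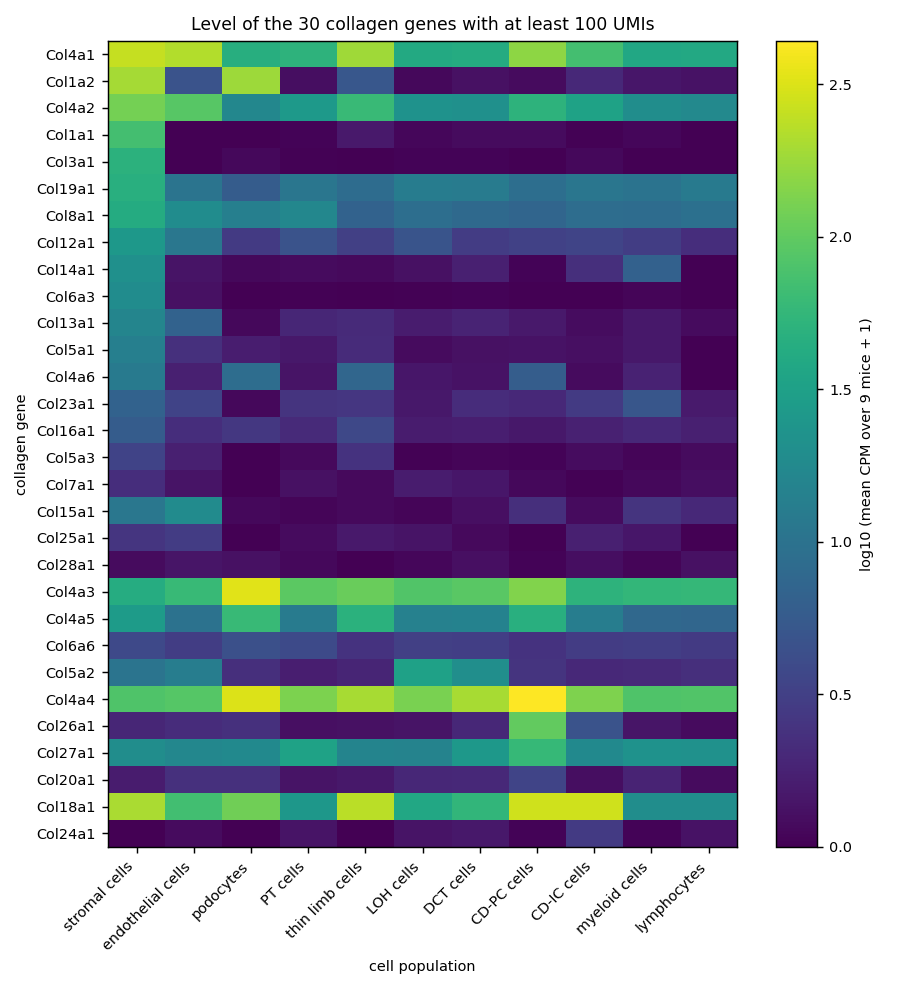
Level of the 30 collagen genes with at least 100 UMIs (rows) in 11 cell populations (columns), as log10 of the mean CPM over 9 mice plus 1, on a colour scale from dark (low) to bright (high). Most rows are brightest in stromal cells, Col4a3 is brightest in podocytes, and Col26a1 is bright in CD-PC cells alone.

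Free RNA in a droplet gives UMIs to cells that do not make it, so each level was set against that of lymphocytes (1717 cells), which are not known as a source of collagen. Every gene with a UMI in either population was tested over 9 mice by an exact sign-flip permutation test of the paired difference (two-sided, 512 flips, smallest possible p 0.00391), with Benjamini-Hochberg adjustment over all 218123 combinations of gene and population. Of the 348 combinations with a collagen gene, 76 were higher than lymphocytes (21.8%, against 11.8% of all combinations) and 0 were lower (against 6.1%), and 27 different members were among the higher ones. The reference was chosen as cells not known to make collagen. The 0 lower and the share above that of all genes are therefore partly built in and are not a result. This holds for the shares by population too.

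By population, 18 of the 40 collagen genes tested in stromal cells were higher (45%), against 9.14% of all genes. In podocytes it was 5 of 34 (14.7%), against 3.87%, in PT cells 13 of 44 (29.5%), against 18%, and in CD-PC cells 10 of 34 (29.4%), against 16.2%. The shares were closer to those of all genes in endothelial cells, with 8 of 39 (20.5%, against 14%), in LOH cells, with 6 of 40 (15%, against 10.9%), in DCT cells, with 6 of 42 (14.3%, against 11.5%), in CD-IC cells, with 5 of 35 (14.3%, against 10.5%), and in thin limb cells, with 5 of 40 (12.5%, against 9.36%). These calls sit near the limit of 9 mice, with adjusted p from 0.0284 to 0.0436. With any 1 mouse left out the smallest possible p was 0.00781. Then 62 combinations passed without AKI-CKD + EGT mouse 3 and 0 without any other mouse, where the smallest adjusted p was 0.0505 to 0.0535. Depth differed too, with 39395250 to 83927259 UMIs per mouse in PT cells and 341298 to 1143182 in lymphocytes. A scarce gene can thus be above 0 in every PT mouse and at 0 in lymphocytes from depth alone. The PT count is therefore not read as a result.

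Among the named populations, the chains of collagens I and III were highest in stromal cells, and Col1a2 was also found in podocytes, where no Col1a1 UMI was detected. Col1a1 and Col3a1 are described because collagens I and III make up interstitial fibres, and were chosen after their values were seen, as were Col5a2, Col15a1 and the collagen VI genes. Col1a2, the second chain of collagen I, averaged 192 CPM in stromal cells and 179 CPM in podocytes, against 0.358 CPM in lymphocytes. Col1a1, its partner chain, averaged 69.4 CPM in stromal cells and Col3a1 49.3 CPM, with both at 0 CPM in lymphocytes. Only a minority of the stromal cells held them. Col1a2 had a UMI in 118 of 614 stromal cells (19.2%, exact 95% interval 16.2 to 22.6%), Col3a1 in 44 (7.17%) and Col1a1 in 36 (5.86%, 4.14 to 8.03%), and 11 cells held all 3. In lymphocytes the counts were 2 of 1717 cells for Col1a2 (0.116%) and 0 for both other genes, at a median depth of 2197 UMIs per cell against 3166 in stromal cells. A single cell held 17.4% of the 161 stromal Col1a1 UMIs. The 36 cells with a Col1a1 UMI had a summed fibroblast marker level of 4651 CPM, compared with 236 CPM in the other 578, at medians of 3956 and 3097 UMIs per cell. Their summed mural marker levels were 21490 and 13900 CPM, while the share of cells with any mural marker UMI was 83.3% and 93.1%.

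In podocytes, Col1a2 had a UMI in 77 of 697 cells (11%, exact 95% interval 8.82 to 13.6%), Col1a1 in 0 (upper bound 0.528%) and Col3a1 in 1. The bound limits cells with a UMI at a median of 2291 UMIs per podocyte, not cells that make Col1a1. A single cell held 44 of the 237 podocyte Col1a2 UMIs. The Col1a2 level of podocytes ran from 44.8 to 367 CPM among the mice. It was lowest, at 44.8 to 86.9 CPM, in Control mice 1 and 2 and AKI-CKD + EGT mice 2 and 3. In those mice the 10 podocyte markers together reached 3869 to 8516 CPM, against 10500 to 25720 CPM in the other mice, so podocyte RNA and Col1a2 were low in the same mice. Counting intervals cover counting error only.

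Of the other fibrillar genes, Col5a2, a chain of the minor fibrillar collagen V, was highest in the LOH. It averaged 31.4 CPM in LOH cells (18.4 to 57.9 CPM among mice) and 19.4 CPM in DCT cells, 12.1 CPM in endothelial cells and 9.35 CPM in stromal cells, compared with 1.28 CPM in lymphocytes. Col27a1, a long fibrillar collagen of cartilage, was above lymphocytes (20.7 CPM) in CD-PC cells alone, at 57.6 CPM. Its level of 32.4 CPM in PT cells did not pass that test.

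The collagen IV chains differed by compartment. Col4a1 and Col4a2, the pair of most basement membranes, were highest in stromal and endothelial cells. Col4a1 averaged 259 CPM in stromal and 216 CPM in endothelial cells, 185 CPM in thin limb and 154 CPM in CD-PC cells, against 38.0 CPM in lymphocytes. Col4a2 followed at 122, 88.7, 61.4 and 50.7 CPM, against 16.7 CPM. Col4a4 in endothelial cells (87.3 CPM) was at the lymphocyte level of 83.4 CPM. Podocytes did not stand above lymphocytes for Col4a1 (43.97 CPM).

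Col4a3 and Col4a4, the pair of the mature glomerular basement membrane, were highest in podocytes and CD-PC cells. Col4a3 averaged 337 CPM in podocytes and 139 CPM in CD-PC cells, against 57.2 CPM in lymphocytes. Col4a4 averaged 438 CPM in CD-PC cells, 316 CPM in podocytes, 197 CPM in DCT and 195 CPM in thin limb cells, against 83.4 CPM. The podocyte order of the pair changed among mice: Col4a3 exceeded Col4a4 in 4 mice (Control 1, AKI-CKD 1 and 2, AKI-CKD + EGT 1), equalled it in Control mouse 2 at 288 CPM each, and was below it in the other 4. Because the lymphocyte levels of this pair were themselves high, a level near them cannot be told apart from free RNA.

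Col4a5, the X-linked partner of that pair, averaged 59.9 CPM in podocytes, 47.4 CPM in thin limb and 45.5 CPM in CD-PC cells, against 6.38 CPM in lymphocytes. Among the podocytes of single mice it ran from 6.40 to 141 CPM. Col4a6, the chain that pairs with Col4a5 outside the glomerulus, was the scarcest, with 377 UMIs, and averaged 10.9 CPM in stromal and 4.95 CPM in CD-PC cells, and 0 CPM in lymphocytes.

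The multiplexins split by cell type. Col18a1, which encodes the core of a heparan sulphate proteoglycan and the fragment endostatin, averaged 281 CPM in CD-IC, 279.6 CPM in CD-PC, 231 CPM in thin limb cells, and 166 to 249 CPM among mice in stromal cells. It was lower in podocytes (116 CPM), endothelial cells (69.2 CPM), DCT (53.5 CPM) and LOH cells (37.0 CPM), and 18.7 CPM in lymphocytes. The 4 highest populations overlapped in their values over mice. Col15a1, its relative, averaged 18.0 CPM in endothelial cells (11.8 to 26.2 CPM), against 1.02 CPM in lymphocytes.

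Further members were high in 1 population or a few. Col26a1, a little-studied secreted protein with short collagenous stretches, averaged 102 CPM in CD-PC cells (61.7 to 241 CPM among mice) and 3.72 CPM in the neighbouring CD-IC cells, against 0.183 CPM in lymphocytes, and DCT cells were the other population that passed. It had a UMI in 495 of 2410 CD-PC cells (20.5%, exact 95% interval 18.9 to 22.2%) and in 1 of 1717 lymphocytes (0.0582%), at medians of 2821 and 2197 UMIs per cell. Col6a1, Col6a2 and Col6a3, the chains of the microfibrillar collagen VI, averaged 19.0, 24.7 and 18.4 CPM in stromal cells and 0 CPM in lymphocytes. Col8a1, a network-forming collagen of vessel walls, averaged 41.7 CPM in stromal cells, 18.5 CPM in endothelial and 15.8 CPM in PT cells, against 8.54 CPM.

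The condition comparisons were made on UMIs summed per mouse and population, in an edgeR quasi-likelihood fit over the 9 mice with Benjamini-Hochberg adjustment over all genes tested. The first contrast set AKI-CKD against Control mice, and the second set AKI-CKD + EGT against AKI-CKD mice. They share the 3 AKI-CKD mice, so an opposite sign in the second is partly built in and is not a result. Values given by mouse in these comparisons are CPM scaled by edgeR's trimmed mean of M-values (TMM), and are listed for mice 1, 2 and 3 of a group. Over all populations, 330 tests of a collagen gene were made in 22 combinations of population and contrast, and 5 passed an adjusted p of 0.05, all of them in tubular segments. The segments were added after collagen levels had been seen. Before filtering, mitochondrial UMIs made up 8.30, 4.83 and 1.71% in Control, 3.85, 3.57 and 2.44% in AKI-CKD, and 4.30, 5.75 and 9.28% in AKI-CKD + EGT mice. The groups of the second contrast thus did not overlap in this share, and its part in the collagen results was not tested.

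In stromal cells, Col1a1, Col1a2 and Col4a1 had higher mean levels in AKI-CKD than in Control mice, but the mice overlapped and none passed the test. Col1a1 was 29.4, 69.7 and 0 in Control, 161, 192 and 23.1 in AKI-CKD, and 141, 37.4 and 50.5 TMM-scaled CPM in AKI-CKD + EGT mice. AKI-CKD mouse 3 was within the range of the Control mice. The log2 fold change was 1.83 (SE 0.932, adjusted p = 0.667 by edgeR's quasi-likelihood test). These levels rest on 6, 7 and 0 cells with a Col1a1 UMI in Control, 4, 5 and 2 in AKI-CKD, and 6, 4 and 2 in AKI-CKD + EGT mice. Col1a2 was 121, 216 and 113, then 465, 268 and 53.8, then 282, 220.2 and 202, with a log2 fold change of 0.82 (SE 0.567). Cells with a Col1a2 UMI numbered 13, 14 and 12, then 12, 8 and 4, then 16, 15 and 24, and 1 cell held 56 of the 466 UMIs. Col3a1 was 25.7, 79.7 and 11.3, then 72.0, 76.0 and 46.1, then 58.7, 70.6 and 61.0, at 0.65 (SE 0.48), with Control mouse 2 the highest of all. Col4a1 was 298, 256 and 198, then 316, 460.2 and 238, then 352, 237 and 278, at 0.44 (SE 0.27). The AKI-CKD mice thus overlapped the Control mice for each of these genes. The summed fibroblast markers of the stromal cells were 190.1 to 399 CPM in Control mice, 911, 258 and 195 CPM in AKI-CKD mice and 2039, 349 and 429 CPM in AKI-CKD + EGT mice, and their part in these levels was not tested.

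Of the 11 collagens tested in stromal cells, 0 were called in either contrast, against 0% and 0.11% of the 4528 genes tested. At an unadjusted p below 0.05 there were 2 and 3, against 8.33% and 8.59% of all genes, and DESeq2 called 0 as well. The median log2 fold change of the 11 was 0.25 in the first contrast and -0.13 in the second, compared with 0.00 and 0.02 over all genes tested. The smallest unadjusted p in the first contrast belonged to Col4a3, which was 66.1, 93.0 and 33.9 in Control, 16.6, 31.3 and 23.1 in AKI-CKD and 29.3, 66.5 and 69.4 in AKI-CKD + EGT mice. Its Control and AKI-CKD mice did not overlap (log2 fold change -1.46, SE 0.488, adjusted p = 0.446 by edgeR's quasi-likelihood test). Such a gap in the lower direction was found for 7.2% of all genes tested, and one in the higher direction in the second contrast for 7.84%. Stromal Col4a3 rests on 119 UMIs over all mice, in 84 of 614 cells (13.7%). In lymphocytes 11.8% of cells held a Col4a3 UMI, at a median of 2197 UMIs per cell against 3166 in stromal cells. The part of free RNA in stromal Col4a3 was not tested. Col18a1 was 209, 223 and 226 in Control, 283, 232 and 269 in AKI-CKD and 182, 220.2 and 189 in AKI-CKD + EGT mice, at -0.40 (SE 0.237) in the second contrast. Col8a1, at 58.8, 29.9 and 17.0, then 77.6, 116 and 30.8, then 35.2, 20.8 and 40.0, gave adjusted p = 0.526 in the first contrast and -1.25 (adjusted p = 0.465) in the second. Col19a1, a fibril-associated collagen, was higher in AKI-CKD + EGT (88.0, 78.9 and 75.7) than in AKI-CKD mice (44.3, 35.7 and 15.4) without overlap, at 1.25 (SE 0.407, adjusted p = 0.386).

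**Figure D2:**
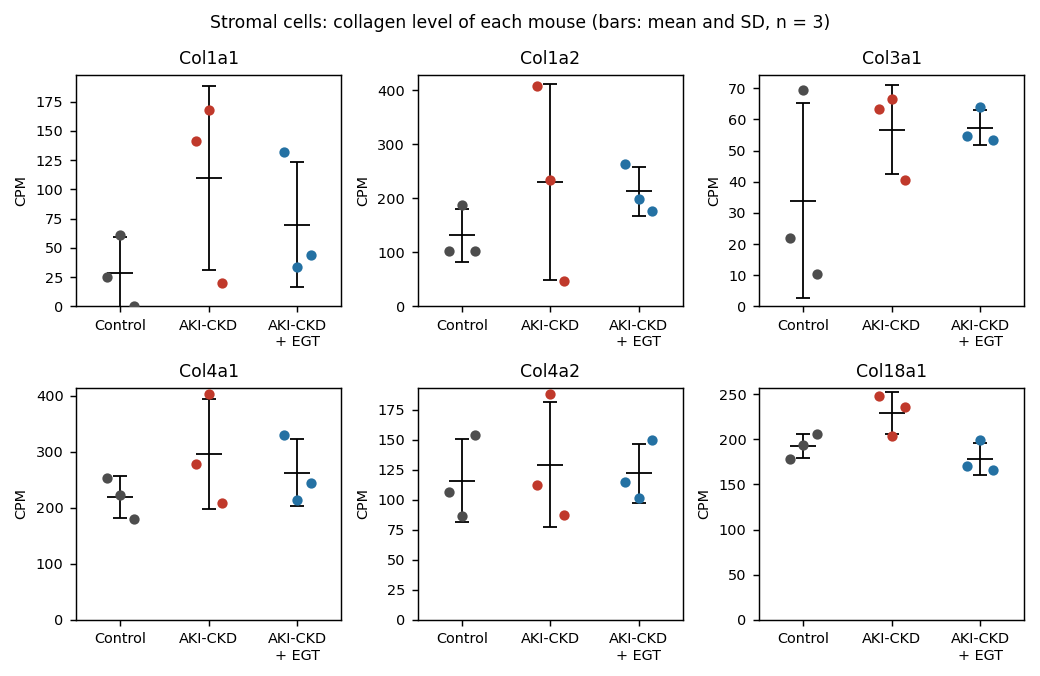
Level of 6 collagen genes in the stromal cells of each mouse, in CPM (vertical axes start at 0), with 3 mice per group as points and bars for the mean and SD. AKI-CKD mouse 3 lies within the range of the Control mice for Col1a1 and below them for Col1a2, while the other AKI-CKD mice lie above them for both.

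The share of stromal cells among all kept cells was 0.374, 0.32 and 0.249% in Control, 0.199, 0.285 and 0.185% in AKI-CKD, and 0.209, 0.354 and 0.707% in AKI-CKD + EGT mice. The differences of the means, -0.0916 and 0.2007 percentage points, gave p = 0.2 each in a two-sided exact permutation test, whose smallest possible p is 0.1. Without AKI-CKD + EGT mouse 3 the second difference was 0.0589 percentage points (exact permutation p = 0.5). Counted among cells outside the proximal tubule, the second difference turned to -0.228 percentage points, so no direction is given for it. The first difference was -0.1425 percentage points in that setting (exact permutation p = 0.1, the smallest possible) and was negative in every setting tried. With 3 mice per group it could not reach a p below 0.05.

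In endothelial cells, 0 of 13 collagens tested were called in either contrast, against 0% and 0.00967% of 10341 genes. At an unadjusted p below 0.05 there were 1 and 2, against 8.85% and 9.87% of all genes, and DESeq2 called 0. Col18a1 came nearest in both. It was 59.9, 78.2 and 44.1 in Control, 88.3, 82.4 and 107 in AKI-CKD, and 73.1, 53.3 and 49.0 in AKI-CKD + EGT mice. All 3 AKI-CKD mice lay above the other mice (log2 fold changes 0.59, SE 0.221, adjusted p = 0.463, and -0.67, SE 0.22, adjusted p = 0.319). Col4a1, the most abundant collagen there, gave 0.27 (SE 0.166) in AKI-CKD against Control. Col5a2 gave 0.70 (SE 0.412) in the same contrast.

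In podocytes, 0 of 6 collagens tested were called in either contrast, against 0% and 0.0512% of 3904 genes. In each, 1 had an unadjusted p below 0.05, against 7.63% and 9.86% of all genes, and DESeq2 called 0. That gene was again Col18a1, at 51.5, 90.9 and 24.8 in Control, 131, 239.6 and 283 in AKI-CKD, and 206, 40.2 and 81.0 in AKI-CKD + EGT mice. Its AKI-CKD mice lay above all Control mice (log2 fold change 1.85, SE 0.531, adjusted p = 0.532), and the second contrast gave -1.34 (adjusted p = 0.369). These levels rest on 193 UMIs, 47 of them in 1 cell. Podocytes numbered 126, 66 and 16 in Control and 18, 32 and 45 in AKI-CKD mice, so the level of Control mouse 3 rests on very few UMIs. AKI-CKD + EGT mouse 1 stood apart: without it Col18a1 passed in both contrasts (adjusted p = 0.0398 and 0.00813) and Col1a2 passed in the second (log2 fold change -2.13, adjusted p = 0.00293). The summed podocyte markers were 25720 CPM in that mouse and 3869 to 15440 CPM in the others, and whether this bears on Col18a1 was not tested. Col4a1 gave -0.84 (adjusted p = 0.73) and Col1a2 -1.24 (adjusted p = 0.66) in the contrasts where each came second. Podocyte Col1a2 rested on 237 UMIs, 44 of them in 1 cell.

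Taking all tubular cells together, 0 of 29 collagens tested were called in either contrast, against 0.0372% and 0% of 18801 genes, with 4 and 6 at an unadjusted p below 0.05 (10.1% and 16.3% of all genes) and 0 by DESeq2. The 4 most abundant were Col4a4, Col4a3, Col4a1 and Col18a1, at means of 138, 92.5, 50.9 and 33.9 CPM over the 9 mice. PT cells were 77.9, 81.5 and 84.8% of kept cells in Control, 87.4, 80.4 and 88.5% in AKI-CKD, and 81.5, 74.0 and 51.4% in AKI-CKD + EGT mice. Sums over tubular or all cells thus mix this share with the level within cells, and its part was not tested. Col19a1 (log2 fold change -0.75, adjusted p = 0.459) and Col23a1, a transmembrane collagen (-0.98, adjusted p = 0.467), came nearest in the first contrast. Col1a2 came nearest in the second (2.04, SE 0.62, adjusted p = 0.227), from 0.0598 to 0.18 in AKI-CKD to 0.276, 0.295 and 1.07 TMM-scaled CPM in AKI-CKD + EGT mice, a trace against the stromal level. Col4a6 gave 1.33 (adjusted p = 0.252). AKI-CKD + EGT mouse 3, with the highest tubular Col1a2, also had the highest share of stromal cells among kept cells (0.707%). The part of stromal RNA in tubular Col1a2 was not tested. Over all cells, 0 of 36 collagens were called, against 0.0199% and 0.00496% of 20144 genes, with 1 and 2 at an unadjusted p below 0.05 (8.02% and 12.7% of all genes) and 0 by DESeq2. The nearest there were Col19a1 (-0.74, adjusted p = 0.57) and Col4a3 (-0.50, adjusted p = 0.616) in the first contrast, and Col4a6 (1.19, adjusted p = 0.356) and Col4a5 (0.38, adjusted p = 0.375) in the second.

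Among tubular segments, Col18a1 in CD-IC cells gave the smallest adjusted p of any collagen. Its level was 220.3, 294 and 245 in Control, 425, 431 and 358 in AKI-CKD, and 217, 207 and 171 TMM-scaled CPM in AKI-CKD + EGT mice. The AKI-CKD mice lay above all others on this scale and on plain CPM. In AKI-CKD + EGT against AKI-CKD mice it fell by 1.04 on the log2 scale (SE 0.166, adjusted p = 0.0026 by edgeR's quasi-likelihood test), and this call was kept in all 18 alternative settings (largest adjusted p 0.0297). In AKI-CKD against Control mice the log2 fold change was 0.67 (SE 0.166, adjusted p = 0.066), which missed the threshold but passed it under 7 of the 18 alternatives.

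Lymphocyte Col18a1 was 10.2 to 27.0 CPM in Control mice, 15.9 to 20.5 CPM in AKI-CKD and 14.1 to 23.0 CPM in AKI-CKD + EGT mice, with overlap between the groups, and the part of free RNA in the CD-IC level was not tested. The CD-IC cells were made up of 2 clusters. Nearly all Col18a1 was in the larger one (1733 cells), at 318, 425 and 422 CPM in Control mice, 517, 516 and 464 CPM in AKI-CKD and 325, 307 and 194 CPM in AKI-CKD + EGT mice, compared with 5.63 to 29.1 CPM in the smaller. The larger cluster made up 46.9, 47.4 and 40.6% of the CD-IC cells of Control mice, 64.3, 60.5 and 51.9% in AKI-CKD and 42.9, 51.9 and 75.8% in AKI-CKD + EGT mice. Within that cluster alone Col18a1 gave 0.43 (adjusted p = 0.42) and -0.89 (adjusted p = 0.0153), so the second call was kept. The summed CD-IC markers also stood higher in AKI-CKD mice, at 9777, 9594 and 7787 CPM against 3512 to 7233 CPM in the other mice. PT markers in CD-IC cells were 66610 to 82020 CPM in Control mice, 24720 to 63800 CPM in AKI-CKD and 44970 to 72310 CPM in AKI-CKD + EGT mice. The part of both in the Col18a1 result was not tested.

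Col27a1 was the other gene called in CD-IC cells, at a level no higher than that of lymphocytes. It was 26.4, 25.4 and 16.5 in Control, 8.47, 6.27 and 4.94 in AKI-CKD, and 21.8, 22.1 and 22.4 TMM-scaled CPM in AKI-CKD + EGT mice. These levels rest on 175 UMIs over all mice, in 142 of 3030 CD-IC cells (4.69%, against 4.54% of lymphocytes). The CD-IC cells of the AKI-CKD mice held 1045966, 803205 and 643414 UMIs of all genes, so each level there rests on few Col27a1 UMIs. Col27a1 fell by 1.77 on the log2 scale in AKI-CKD mice (SE 0.368, adjusted p = 0.0454) and rose by 1.68 in the second contrast (SE 0.357, adjusted p = 0.0103), both by edgeR's quasi-likelihood test. Lymphocyte Col27a1 was 37.1, 38.2 and 10.2 CPM in Control mice, 5.86, 13.4 and 14.4 CPM in AKI-CKD and 30.5, 10.5 and 26.3 CPM in AKI-CKD + EGT mice, lowest on average in AKI-CKD mice too but with overlap between groups, and the part of free RNA in these calls was not tested. The first call was lost without any 1 of the Control mice, AKI-CKD mouse 1 or 2, or AKI-CKD + EGT mouse 2, with the replicate block, with at most 10% mitochondrial UMIs and in the larger cluster alone, and the second call without AKI-CKD mouse 2, and DESeq2 made neither. Of the 9 collagens tested in CD-IC cells, 1 and 2 were called, against 0.412% and 6.28% of 8739 genes, and 4 in each contrast had an unadjusted p below 0.05, against 14.2% and 22.5%.

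**Figure D3:**
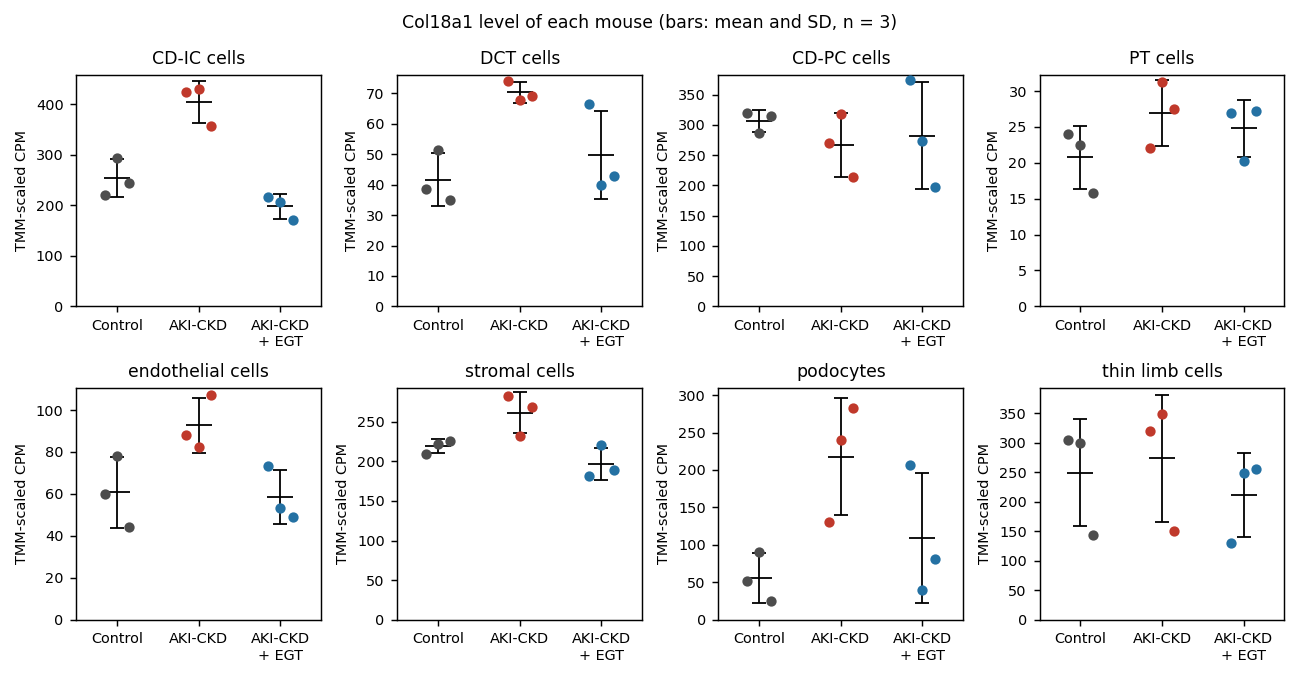
Col18a1 level of each mouse in 8 populations, in TMM-scaled CPM (vertical axes start at 0 and differ in range), with 3 mice per group as points and bars for the mean and SD. In CD-IC cells the AKI-CKD mice sit between 358 and 431, above all other mice, and in CD-PC and thin limb cells the groups overlap.

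Across populations, Col18a1 of the AKI-CKD mice lay above all Control mice in 7 of 11 populations (all cells, stromal, endothelial, podocytes, tubular, DCT and CD-IC), and the AKI-CKD + EGT mice lay below all AKI-CKD mice in 4 (stromal, endothelial, DCT and CD-IC). The shares of all genes separated in this way were, in the order named, 8.71, 6.78, 7.85, 7.22, 10.7, 8.82 and 10.3% for the first, and 5.92, 7.45, 8.76 and 12.1% for the second. The populations come from the same mice and all cells and tubular cells contain the rest, so they are not independent. The result also depends on the scaling: on plain CPM the Control and AKI-CKD mice overlapped in stromal, tubular and all cells. In DCT cells Col18a1 was 38.4, 51.4 and 35.1 in Control, 74.1, 67.8 and 69.0 in AKI-CKD and 66.4, 39.8 and 43.0 in AKI-CKD + EGT mice, with log2 fold changes of 0.75 (SE 0.205, adjusted p = 0.343) and -0.51 (SE 0.202, adjusted p = 0.347). CD-PC cells, which held as much Col18a1 as CD-IC cells, gave -0.19 and 0.06, and thin limb cells 0.12 and -0.33.

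Col4a3 and Col4a4 were called in thin limb cells of AKI-CKD + EGT against AKI-CKD mice. Col4a4 was 179.8, 156 and 217 in Control, 132, 118 and 85.7 in AKI-CKD, and 289.9, 291 and 366 TMM-scaled CPM in AKI-CKD + EGT mice. It rose by 1.52 on the log2 scale in AKI-CKD + EGT against AKI-CKD mice (SE 0.251, adjusted p = 0.013 by edgeR's quasi-likelihood test). Col4a3 was 79.9, 123 and 154, then 18.8, 62.5 and 54.4, then 152, 170.1 and 204, and rose by 1.92 (SE 0.357, adjusted p = 0.0192 by the same test). For both genes the AKI-CKD mice lay below all others, which held for 9.97% of all genes against Control and 11% against AKI-CKD + EGT mice. Their X-linked partner Col4a5 was separated in the same contrast at 1.44 (SE 0.441, adjusted p = 0.117).

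These thin limb calls were the 2 of 6 collagens tested, against 1.23% of 6439 genes. In AKI-CKD against Control mice 0 were called, against 0%, with 2 at an unadjusted p below 0.05 and 0 by DESeq2. At that level the share of all genes was 12.1% in the first and 17.4% in the second contrast. In the first contrast Col4a3 gave -1.37 (adjusted p = 0.176) and Col4a4 -0.74 (adjusted p = 0.279). The rise of both genes rests on 61 to 185 cells per mouse, and 0 collagens were called when AKI-CKD mouse 1, AKI-CKD mouse 3, AKI-CKD + EGT mouse 2 or AKI-CKD + EGT mouse 3 was left out. The summed thin limb markers were 6315, 8632 and 6678 CPM in Control mice, 3406, 8574 and 3494 CPM in AKI-CKD and 10130, 12600 and 10030 CPM in AKI-CKD + EGT mice, highest where the collagens were highest, and their part was not tested.

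The lymphocyte levels of this pair, used here as a stand-in for free RNA, which was not measured directly, were lower in AKI-CKD mice than in all other mice. The share of all genes so separated in lymphocytes was not worked out. In lymphocytes Col4a3 was 80.9, 58.3 and 74.1 CPM in Control mice, 26.4, 33.0 and 32.3 CPM in AKI-CKD and 68.0, 46.4 and 95.3 CPM in AKI-CKD + EGT mice. Col4a4 was 123, 80.1 and 123, then 46.9, 48.8 and 59.2, then 89.1, 78.7 and 102 CPM. With the lymphocyte level of the same mouse subtracted, thin limb Col4a4 was 46.1 to 80.4 CPM in Control mice, 13.1 to 70.9 CPM in AKI-CKD and 188 to 262 CPM in AKI-CKD + EGT mice, so the AKI-CKD + EGT mice were above all others and the Control and AKI-CKD mice overlapped. Thin limb Col4a3 became -5.70 to 70.0 CPM, -9.54 to 26.1 CPM and 76.9 to 121 CPM in the same order, again with overlap between Control and AKI-CKD mice.

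**Figure D4:**
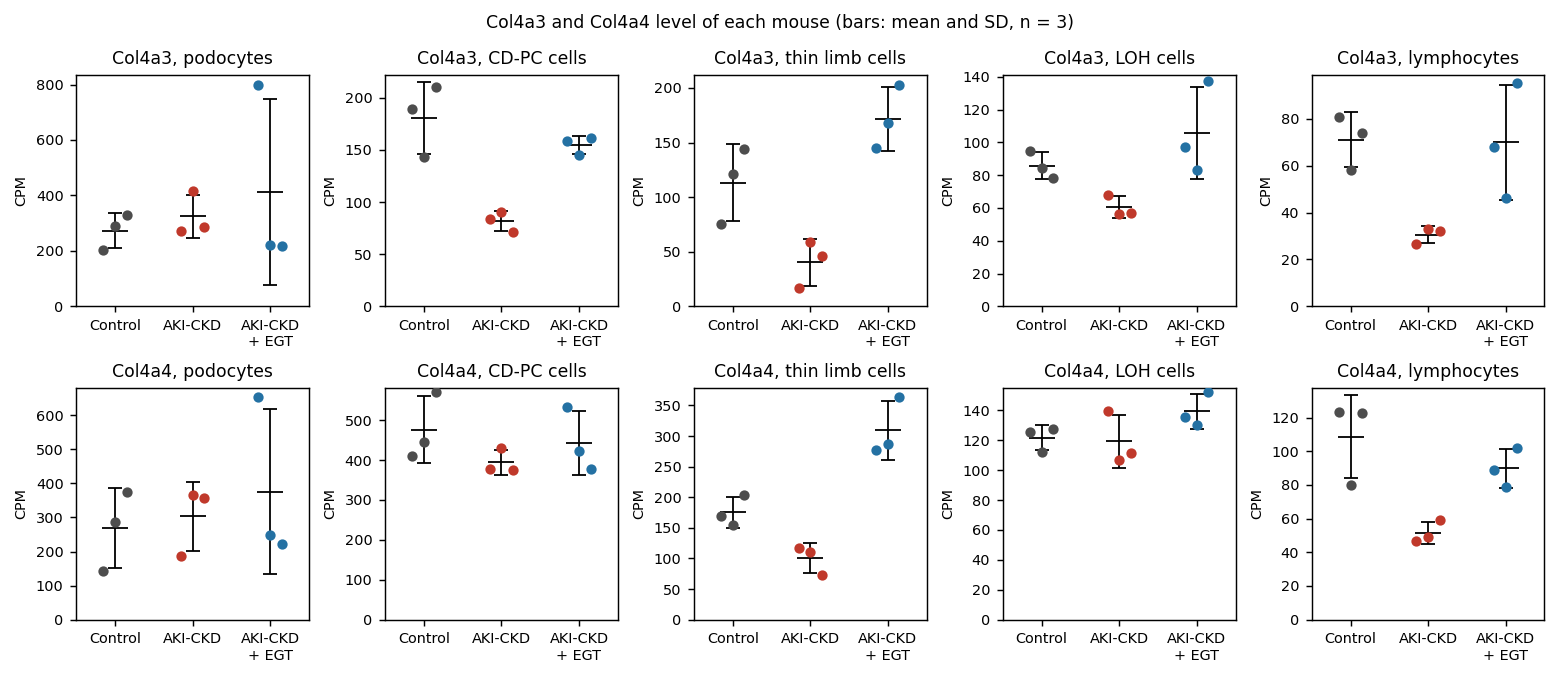
Col4a3 (upper row) and Col4a4 (lower row) level of each mouse in 4 kidney populations and in lymphocytes, in CPM (vertical axes start at 0 and differ in range), with 3 mice per group as points and bars for the mean and SD. The AKI-CKD mice are lowest for both genes in thin limb cells and in lymphocytes, and lowest for Col4a3 in CD-PC cells.

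Col4a3 was lower in the AKI-CKD than in all Control mice in 8 of 11 populations (all cells, stromal, tubular, PT, LOH, CD-PC, CD-IC and thin limb), and the same was seen in lymphocytes. The shares of all genes so separated were 7.09, 7.2, 8.41, 8.96, 7.95, 11.2, 8.78 and 9.97% in that order. That share was not worked out for lymphocytes, so how unusual their separation is cannot be judged. Cells with a Col4a3 UMI were 13.7% of stromal and 13.6% of CD-IC cells, close to the 11.8% of lymphocytes. In the second contrast it was higher without overlap in LOH, CD-PC and thin limb cells, against 7.84, 9.04 and 11% of all genes. In the first contrast its log2 fold change was largest relative to its SE in CD-PC cells, at 198, 148 and 191 in Control, 88.3, 92.5 and 75.6 in AKI-CKD, and 164, 143 and 178 TMM-scaled CPM in AKI-CKD + EGT mice. The log2 fold changes were -1.05 (SE 0.202, adjusted p = 0.0696) and 0.91 (SE 0.2, adjusted p = 0.188), and DESeq2 called both (adjusted p = 0.00331 and 0.0335). After subtraction of the lymphocyte level of the same mouse, CD-PC Col4a3 was 84.7 to 136 CPM in Control mice, 39.5 to 57.2 CPM in AKI-CKD and 65.8 to 98.6 CPM in AKI-CKD + EGT mice, without overlap between AKI-CKD and the others. The subtraction takes free RNA to be the same share of both populations, and the part of free RNA was not tested. Col4a4 in CD-PC cells gave -0.19 and 0.16. Podocyte Col4a3 gave 0.20 and 0.29.

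In CD-PC cells 0 of 8 collagens tested were called by edgeR in either contrast, against 0% of 9069 genes in both, with 3 and 1 at an unadjusted p below 0.05 (14.7% and 13% of all genes). Col26a1 was 109, 129 and 219 in Control, 97.7, 66.6 and 71.7 in AKI-CKD, and 67.4, 93.9 and 68.0 TMM-scaled CPM in AKI-CKD + EGT mice, with a log2 fold change of -0.93 (SE 0.268, adjusted p = 0.158) in AKI-CKD against Control. Control mouse 3 was far above the rest. Col4a5 gave -1.03 and 0.63 (adjusted p = 0.158 and 0.39).

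In LOH cells 0 of 10 collagens were called, against 0.0648% and 0.296% of 10797 genes, with 2 at an unadjusted p below 0.05 in each contrast (10.9% and 13.4% of all genes). Col4a3 was 99.6, 89.1 and 76.8 in Control, 67.7, 57.3 and 58.4 in AKI-CKD and 95.3, 81.5 and 136 in AKI-CKD + EGT mice, giving -0.54 (adjusted p = 0.304) and 0.79 (SE 0.186, adjusted p = 0.0732). DESeq2 called the second (adjusted p = 0.0322). Col19a1 gave -1.12 (adjusted p = 0.244) in the first contrast and Col4a2 0.59 (adjusted p = 0.301) in the second. In DCT cells 0 of 11 were called, against 0% of 12090 genes in both contrasts, with 1 and 3 at an unadjusted p below 0.05 (9.97% and 12.5% of all genes) and 0 by DESeq2, and Col4a3 gave -0.54 and 0.62 (adjusted p = 0.517 and 0.365). In PT cells 0 of 26 were called, against 0.0392% and 0% of 17866 genes, with 3 and 2 at an unadjusted p below 0.05 (10.8% and 14.8% of all genes) and 0 by DESeq2. The nearest in PT cells were Col23a1 (-1.09, adjusted p = 0.407) and Col19a1 (-0.73, adjusted p = 0.413), then Col1a2 (1.80, adjusted p = 0.274) and Col5a2 (1.70, adjusted p = 0.289).

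**Figure D5:**
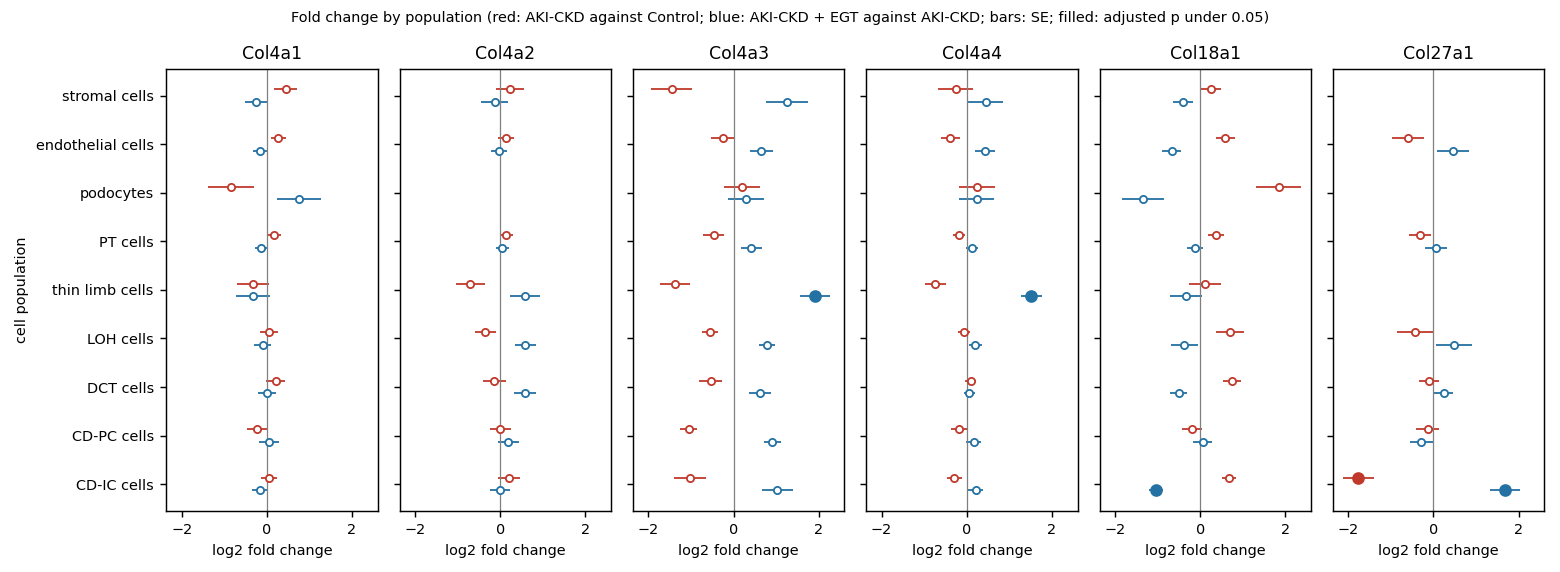
Log2 fold change of 6 collagen genes (panels) in 9 populations (rows), red for AKI-CKD against Control and blue for AKI-CKD + EGT against AKI-CKD, with bars for the SE and filled points for an adjusted p below 0.05. No point means that the gene was not tested there. The 5 filled points are Col4a3 and Col4a4 in thin limb cells and Col18a1 and Col27a1 in CD-IC cells.

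The genes that act on collagens were read from 6 lists: modifying and folding enzymes, processing and cross-linking enzymes, receptors, proteases and their inhibitors, basement membrane partners, and matrix partners. In stromal cells and in all cells 0 of their genes were called in either contrast, against 0% and 0.11% of all genes in stromal cells and 0.0199% and 0.00496% in all cells, with 22, 14, 11, 11, 20 and 15 tested in all cells and 8, 1, 4, 2, 7 and 4 in stromal cells. In AKI-CKD against Control over all cells, the genes with the smallest unadjusted p of their lists were Lamb3, a laminin chain (-0.90, adjusted p = 0.401), Bmp1, which trims the ends of procollagens (0.98, adjusted p = 0.543), Timp1, a metalloproteinase inhibitor (1.90, adjusted p = 0.543), Fbln5, an elastic fibre protein (0.78), Plod2, a lysyl hydroxylase (0.32), and Itga2, a collagen receptor subunit (-1.27). In the second contrast they were Colgalt1, which adds galactose to collagen (-0.37, adjusted p = 0.318), Fras1 (0.55), Dcn, a fibril-binding proteoglycan (1.78), Timp1 (-1.48), Adamts14, a procollagen peptidase (-0.73), and Itga10 (-0.63).

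In stromal cells the smallest p values belonged to Timp3 (-0.44), Ppib, a prolyl isomerase (0.46), Pcolce, an enhancer of procollagen trimming (1.01), Bgn (0.47), Sparc (0.83) and Adgrg1, a receptor for collagen III (-0.59) in the first contrast. In the second they were Mia3, an export factor of procollagen (0.82), Eln (0.84), Itga1 (0.40), Lama5 (0.53), Timp3 (0.28) and Pcolce (-0.52). The smallest adjusted p among the list genes in stromal cells was 0.6. In tubular segments 4 calls were made, all in AKI-CKD + EGT against AKI-CKD mice. Adgrg1 fell by 0.77 on the log2 scale in LOH cells (adjusted p = 0.0343) and by 0.77 in CD-IC cells (adjusted p = 0.0135), Lamb2, a laminin chain, fell by 0.88 in CD-IC cells (adjusted p = 0.0244), and Timp3 rose by 0.83 there (adjusted p = 0.00817), all by edgeR's quasi-likelihood test. These were 1 of 4 receptors tested in LOH cells, against 0.296% of all genes called there, and 1 of 4 receptors, 1 of 1 proteases and inhibitors, 1 of 10 basement membrane partners and 0 of the other lists in CD-IC cells, against 6.28% of all genes.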

How the data were processed

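Single-cell libraries of 9 kidneys, 1 per mouse, were read from UMI count tables that the authors deposited, made per the file headers with PISA on a mouse genome given as GRCm39 in the submitters' processing notes, and no column was left unused. Barcodes were dropped below 1000 UMIs, below 500 genes or above a mitochondrial share of 15%. Cells were clustered with numpy 2.4.6, scikit-learn 1.9.0 and leidenalg 0.10.2 in Python 3.11.15 (2000 variable genes, none a collagen, 30 components, Harmony correction by mouse, 20 neighbours, Leiden resolution 1.1) and named from markers. The naming margin of 0.5 was set after the clusters were seen. No doublet caller was run, and leaving out the cells with the highest 5% of UMIs was tried instead.

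Counts were summed per mouse and population and tested in edgeR 4.0.16 (R 4.3.3) with filterByExpr, TMM, a robust quasi-likelihood fit over the 9 mice and Benjamini-Hochberg adjustment over all genes tested. DESeq2 1.42.0, other filters and scalings, each mouse left out and a replicate block were alternatives. The members and gene lists were chosen with earlier results of these data known, and the tubular segments and the lymphocyte comparison, over all genes, were added after levels were seen. Named were the 4 collagens with the highest mean CPM in stromal, endothelial, podocyte and tubular cells, every collagen called or else the 2 with the smallest p, the 6 collagen IV chains, and 2 genes per list. Median depth was 2534 to 2966 UMIs per kept cell. The script was tested on simulated data.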

Additional observations from a re-analysis of the deposited data

Results flagged for a closer look

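The 528 cells left unnamed held collagen RNA above the level of any named population for 4 genes with more than 3 UMIs in at least 5 mice. Their mean levels over 9 mice were 17.28 CPM for Col6a6, 53.61 CPM for Col19a1, 54.67 CPM for Col23a1 and 61.87 CPM for Col27a1. The highest means among named populations were 3.41, 45.8, 5.71 and 57.6 CPM in the same order. These levels rest on 36, 109, 108 and 156 UMIs. Of the unnamed cells, 368 formed a cluster led by Cntnap2, Cdh13 and Asic2, left unnamed because marker lists of different types scored within the naming margin. The other 160 lay outside clusters of at least 50 cells and were not scored, so the unnamed cells are not read as a cell type. They entered no comparison between groups other than that of all cells.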

How the results depend on the processing

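Settings changed no count of called collagens from 0 in all, stromal, endothelial, tubular or PT cells. In podocytes, leaving out 1 mouse gave 0 to 1 calls in AKI-CKD against Control and 0 to 2 in the EGT comparison (AKI-CKD + EGT against AKI-CKD), with the highest without AKI-CKD + EGT mouse 1. In AKI-CKD against Control, no filter on low counts gave 1 call in LOH, 1 in DCT, 3 in CD-PC, 3 in CD-IC and 1 in thin limb cells. CD-PC cells gave 1 with DESeq2 and 1 with only the 6 mice compared, and 0 to 1 without 1 mouse. CD-IC cells, with 1 call, gave 3 with only the 6 mice, 0 with the replicate block, 0 with at most 10% mitochondrial UMIs, 2 without the cells with the highest UMIs, 0 in the larger cluster alone and 0 to 2 without 1 mouse. In the EGT comparison, no filter gave 1 in LOH, 1 in DCT, 1 in CD-PC, 3 in CD-IC and 4 in thin limb cells, DESeq2 gave 1 in LOH, 1 in CD-PC and 1 in CD-IC cells, and no Harmony correction gave 1 in LOH cells. Leaving out 1 mouse gave 0 to 1 in LOH, DCT and CD-PC, 1 to 3 in CD-IC and 0 to 2 in thin limb cells. In CD-IC cells 3 were also called without the cells with the highest UMIs, and the added gene was Col4a3 in each case of 3 (adjusted p = 0.00292 with no filter, 0.032 without those cells and 0.0204 without AKI-CKD + EGT mouse 2, by edgeR). The lymphocyte comparison gave 0 to 62 without 1 mouse. The stromal share difference of the EGT comparison turned to -0.228 percentage points outside the proximal tubule. Of 69 named combinations of gene, population and comparison, 61 kept their direction in every alternative, and those that turned were Col4a3 in endothelial cells and podocytes and Col18a1 in tubular, PT, LOH, CD-PC and thin limb cells, none of them called in any alternative. The cause of these changes was not tested. Mice of the same number in different groups had correlations of -0.458 to 0.373, and mice of different numbers -0.411 to 0.473. Profiles were centred within groups of 3 mice, so values of both signs are partly built in. They cannot tell whether mice of the same number share a batch. The replicate block changed no other call. Col27a1 in CD-IC cells kept its second call in 16 of 18 alternatives, and Col4a3 and Col4a4 in thin limb cells in 13 of 17 each. Depth limits the stromal cells (148455 to 542667 UMIs per mouse) and podocytes (42589 to 761498), where 11 and 6 of the 44 members could be tested.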

Other observations

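Collagens were also seen in myeloid cells and in cells named from cell cycle genes, whose cell type was not resolved. Col14a1, a fibril-associated collagen, averaged 5.64 CPM in myeloid cells (1.76 to 8.08 CPM among mice) and 0 CPM in lymphocytes. In cycling cells Col4a1 averaged 105 CPM and Col8a1 20.7 CPM (4.25 to 41.8 CPM). No comparison between groups was made on these values.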
